A study of Homo sapiens with 6 samples.

Results

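The 9 genes described here encode the principal human histone acetyltransferases, namely EP300, CREBBP, KAT2A, KAT2B, KAT5, KAT6A, KAT6B, KAT7 and KAT8. They were chosen by name from the 20007 protein-coding genes of the GENCODE annotation (release 44), by a rule that used no value measured in these libraries. Earlier results of these data were known when the choice was made. For each gene, the peaks of histone H3 lysine 27 acetylation (H3K27ac) were counted and measured within 2500 bases of the canonical transcript's start in either direction, called the promoter window below. The same was done for the gene body with 10 kb added to each side, called the gene region. H3K27ac was mapped by CUT&Tag, an assay in which an antibody tethers a transposase that cuts and tags the DNA beside the modified histone.

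The cells were 2 acute myeloid leukemia (AML) lines. Kasumi-1 carries the RUNX1::RUNX1T1 fusion and MV4-11 a KMT2A fusion. Each line had an NC library and a library from cells in which ANP32B was knocked down by a short hairpin RNA (sh-ANP32B), which gives 4 peak lists with 1 library per group. The sample labels call the NC cells untreated, whereas the methods of the study describe a control hairpin and stable lines selected with puromycin. Which of the hairpins against ANP32B was used for CUT&Tag is not stated. The methods of the study describe merging of replicates before peaks were called. With 1 list per group, differences between libraries have no replicate check, and no test was made. An IgG sample of each line was not analysed here.

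Histone acetyltransferases move an acetyl group from acetyl-CoA to lysines of histone tails. EP300 (p300) and CREBBP (CBP) are paralogous coactivators that deposit H3K27ac at promoters and enhancers. KAT2A (GCN5) and KAT2B (PCAF) are the alternative catalytic subunits of the SAGA and ATAC complexes and are best known for acetylating H3K9. KAT5 (TIP60), KAT6A (MOZ), KAT6B (MORF), KAT7 (HBO1) and KAT8 (MOF) form the MYST family, whose members act mainly on histone H4 and on other lysines of H3. CREBBP, EP300 and KAT6A are known as partners in fusions of acute myeloid leukemia. ANP32B, a histone chaperone, is related to ANP32A, which with SET has been described as an inhibitor of histone acetylation. H3K27ac over the gene of an acetyltransferase measures neither the mRNA nor the activity of the enzyme.

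The 4 lists held between 22136 and 24523 peaks on chromosomes 1 to 22, X and Y. The sh-ANP32B library covered 1.03 times as many bases as the NC library in Kasumi-1 and 0.825 times as many in MV4-11. The narrowest peak was 357, 354, 289 and 275 bases wide in Kasumi-1 NC, Kasumi-1 sh-ANP32B, MV4-11 NC and MV4-11 sh-ANP32B, and the 4 libraries are always given in this order below. The number of reads behind each list is unknown, and depth and knockdown cannot be told apart in a difference between the libraries of a line. The promoter window of ANP32B had 3447, 3432, 3433 and 2631 bases under peaks, which does not check the knockdown, since a hairpin acts on the transcript. Of the myeloid and leukocyte markers, SPI1 had a promoter peak in all 4 libraries, CD33 in Kasumi-1 alone (1464, 1411, 0 and 0 bases), PTPRC in MV4-11 alone (0, 0, 403 and 8), CEBPA in all but MV4-11 sh-ANP32B (3148, 3103, 1722 and 0) and MPO in none. Of the genes listed to tell the lines apart, KIT and RUNX1T1, listed for Kasumi-1, had no promoter peak in any library. HOXA9 and MEIS1, listed for MV4-11, had one in both lines. HOXA9 had more bases in Kasumi-1 than in MV4-11 (4335, 4707, 769 and 659), the reverse of its listing. MEIS1 had 3103, 3264, 3337 and 3123. The identity of the lines thus cannot be checked from these lists. PAX5, CD3E, GATA1, EPCAM and ALB, markers of other lineages, had no promoter peak in any library.

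Promoter sequences are shown for the paralogs EP300 and CREBBP and for the paralogs KAT2A and KAT2B, because of how they differed: EP300 was covered in all libraries and CREBBP only in part after knockdown, while KAT2A and KAT2B were covered in Kasumi-1 alone. The bases are those upstream of the start in RefSeq (GRCh38.p14), written 5′ to 3′ on the strand of the gene. Capitals mark the GC box GGGCGG or its reverse complement CCGCCC, the core of the motif bound by SP1. For EP300 the bases nearest to the start were left out because an exon is annotated there, so that 171 of 250 bases are shown.
EP300 (chr22:41092342-41092512, plus strand): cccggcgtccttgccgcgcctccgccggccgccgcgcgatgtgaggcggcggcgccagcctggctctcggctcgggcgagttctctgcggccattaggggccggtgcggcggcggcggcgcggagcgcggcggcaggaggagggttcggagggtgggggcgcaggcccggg
CREBBP (chr16:3880714-3880963, minus strand): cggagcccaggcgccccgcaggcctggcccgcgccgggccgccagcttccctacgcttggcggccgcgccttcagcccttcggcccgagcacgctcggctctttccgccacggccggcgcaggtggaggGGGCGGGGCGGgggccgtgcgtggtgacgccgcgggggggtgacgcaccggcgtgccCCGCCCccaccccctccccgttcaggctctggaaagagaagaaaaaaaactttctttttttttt
KAT2A (chr17:42121368-42121617, minus strand): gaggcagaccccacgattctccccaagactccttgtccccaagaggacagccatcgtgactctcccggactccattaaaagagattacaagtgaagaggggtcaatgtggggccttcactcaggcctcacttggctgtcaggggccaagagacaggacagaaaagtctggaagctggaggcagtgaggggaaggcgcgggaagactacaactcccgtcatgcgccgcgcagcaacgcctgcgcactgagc
KAT2B (chr3:20040196-20040445, plus strand): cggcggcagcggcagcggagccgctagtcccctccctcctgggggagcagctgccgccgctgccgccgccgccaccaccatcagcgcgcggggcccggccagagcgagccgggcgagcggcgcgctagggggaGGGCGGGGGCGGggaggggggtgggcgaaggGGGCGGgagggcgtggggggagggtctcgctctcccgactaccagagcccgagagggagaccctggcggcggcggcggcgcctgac
CREBBP and KAT2B had 3 GC boxes each in these bases, with overlapping matches counted separately, and EP300 and KAT2A had none. GGGCGG was found on either strand in 54.2% of the 250-base upstream windows of 21613 promoters, so that its presence or absence was common. Of the 9 genes, 7 had an entry among the RefSeq promoters, which left out KAT6A and KAT8. CCGGAA, the core of the motif of ETS factors, was found 2 times upstream of KAT5 and 1 time upstream of KAT7, against 18.1% of promoters with at least 1 match. TGACGT, the cyclic AMP response element core, was found 1 time in the same 2 genes, against 8.06% of promoters. KAT6B had 4 matches of CCAAT, the NF-Y motif, upstream of its canonical start, against 33.0% of promoters with at least 1. The windows of 2500 bases to each side were rich in CpG for CREBBP (6.90 CpG per 100 bases, the 98.5 percentile of all genes), KAT6A (5.40), KAT6B (5.38) and EP300 (5.16), and nearest to the median of all genes, 2.90, for KAT7 (3.08).

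All 9 genes had a promoter peak in both Kasumi-1 libraries, where 47.7% (NC) and 45.3% (sh-ANP32B) of all genes had one. In MV4-11, 7 of the 9 had one in each library, against 35.8% and 28.6% of all genes. KAT2A and KAT2B were the 2 without, and 9.72% of all genes likewise had a promoter peak in both Kasumi-1 libraries and in neither MV4-11 library. Promoter peaks in all 4 libraries were found for 7 of the 9, against 25.9% of all genes, and these shares were not tested. Over the genes with a promoter peak, the median number of bases under peaks was 2095, 1755, 1457 and 636 for the acetyltransferases and 1500, 1522, 1046 and 910 for all genes.

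**Figure D1:**
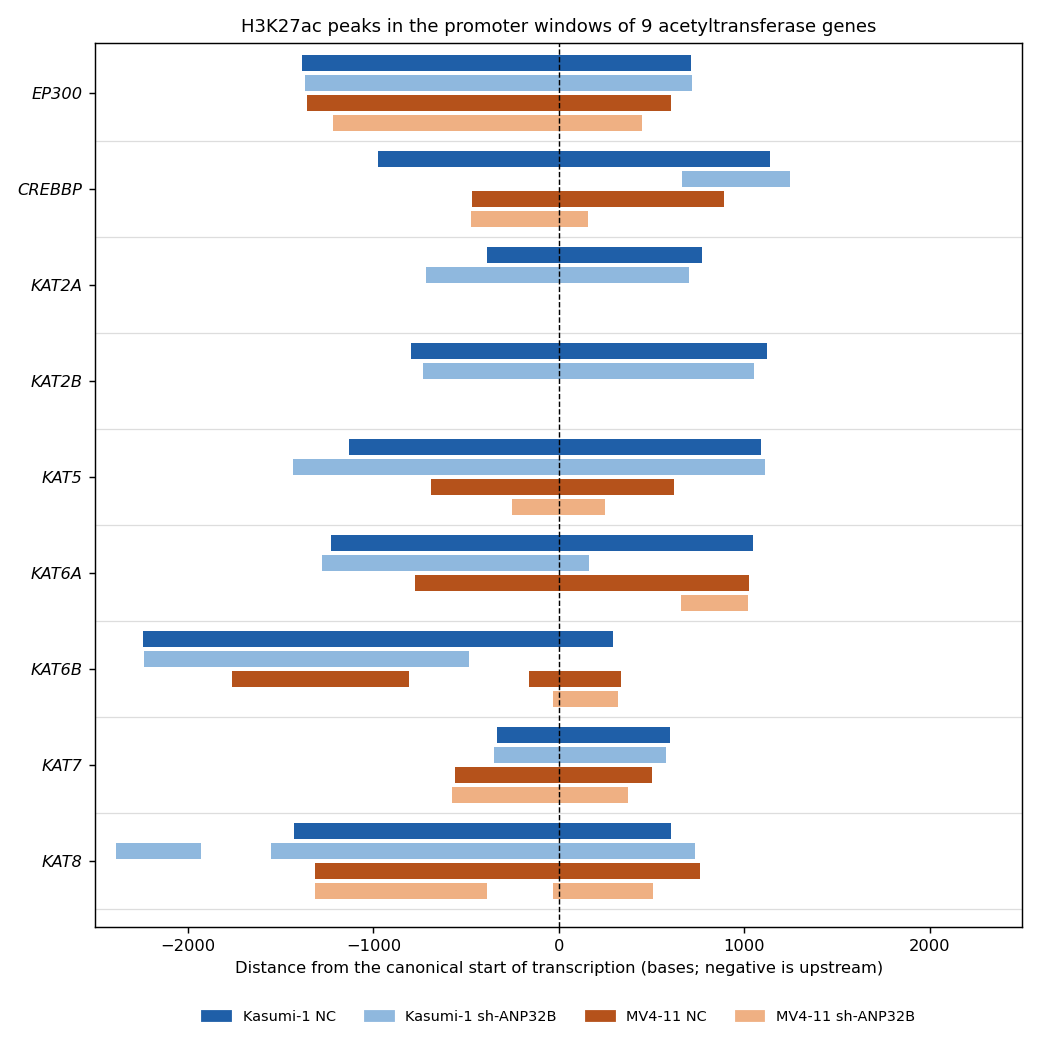
Position of the H3K27ac peaks in the promoter window of each acetyltransferase gene, with the distance from the canonical start in bases on the horizontal axis (negative is upstream) and 1 row of bars for each of the 4 libraries. For EP300, KAT5, KAT7 and KAT8 a peak lies over the start in all 4 libraries. The peaks of CREBBP, KAT6A and KAT6B that are left after knockdown lie in different places in Kasumi-1 and MV4-11.

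EP300, on chromosome 22, had a promoter peak of like extent in all 4 libraries. It had 2095, 2089, 1963 and 1670 bases under peaks. In Kasumi-1 the edges of the NC and sh-ANP32B peaks lay 6 to 12 bases apart. In MV4-11 the sh-ANP32B peak was 293 bases shorter, a log2 ratio of -0.23 that lay close to the median of all genes marked in both MV4-11 libraries (-0.27). The ratio was 0.04 once both libraries were divided by their covered length. Such division, here and below, also removes any fall shared over the genome, and the study reports a genome-wide decrease of H3K27ac after knockdown. A stretch of 1670 bases over the EP300 start was under a peak in all 4 libraries.

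CREBBP, the paralog of EP300 on chromosome 16, had fewer bases under promoter peaks after knockdown in both lines. It had 2115, 579, 1359 and 636 bases. Both NC libraries had a peak over the start, and both sh-ANP32B libraries had a narrower one. The log2 ratio of sh-ANP32B to NC was -1.87 in Kasumi-1, at the 0.332 percentile of the 8889 genes marked in both Kasumi-1 libraries. In MV4-11 it was -1.10, at the 11.8 percentile of 5412 genes. The parts that were left differed between the lines. In Kasumi-1 the peak ran from 976 bases upstream to 1138 bases downstream of the start in NC, and only from 666 to 1244 bases downstream in sh-ANP32B, so that the start and the upstream bases printed above were no longer under a peak. In MV4-11 the peak ran from 469 bases upstream to 889 downstream in NC and from 476 upstream to 159 downstream in sh-ANP32B, and the start stayed under it. The start of a shorter annotated transcript of CREBBP, 593 bases downstream, was under a peak in both NC libraries and in neither sh-ANP32B library.

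KAT6A, on chromosome 8, likewise had fewer promoter bases after knockdown in both lines, with 2275, 1445, 1800 and 365 bases. The log2 ratio was -0.65 in Kasumi-1 (7.32 percentile of the genes marked in both libraries) and -2.30 in MV4-11 (0.767 percentile). In Kasumi-1 the peak lost its downstream side, from 166 to 1047 bases past the start. In MV4-11 only the downstream end was left, from 658 to 1022 bases past the start in intron 1, and the start itself was no longer under a peak. The 365-base remnant was near the narrowest width in its list.

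KAT6B, the paralog of KAT6A on chromosome 10, had 2534, 1755, 1457 and 352 promoter bases. The log2 ratio was -0.53 in Kasumi-1 (9.98 percentile) and -2.05 in MV4-11 (1.56 percentile). KAT6B has several annotated starts, and the 2 lines differed in which of them remained under a peak. Starts that lie 986 to 1673 bases upstream of the canonical one were under a peak in every library but MV4-11 sh-ANP32B, where no peak reached more than 30 bases upstream. The canonical start was under a peak in every library but Kasumi-1 sh-ANP32B, whose peak ended 482 bases upstream of it. The ratio depended on the window in both lines: within 1000 bases of the start KAT6B had 1294, 519, 693 and 352 bases, log2 ratios of -1.32 in Kasumi-1 and -0.98 in MV4-11.

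CREBBP, KAT6A and KAT6B shared a feature that the choice of genes did not use. Each had a promoter peak in all 4 libraries and yet no base under a peak in all 4, although 1359, 1800 and 1414 bases lay under the peaks of both NC libraries. That was 3 of the 7 acetyltransferase genes with a promoter peak in all 4 libraries, beside 2.99% of the 5181 protein-coding genes with one, and 2.41% of the 5150 that also had at least 1 base under both NC peaks. The feature was noticed in the data and was not tested. It builds on the losses in both lines described above for the same 3 genes, so it is no separate result. It rests in part on narrow peaks: with peaks of at least 500 bases only CREBBP had it, because KAT6A and KAT6B then had no promoter peak in MV4-11 sh-ANP32B. Bases under an NC peak and not under an sh-ANP32B peak in both lines numbered 506 for CREBBP, 30.8% of the Kasumi-1 loss and 69.3% of the MV4-11 loss. For KAT6A they numbered 494 (56.0% and 34.4%), and for KAT6B 131 (16.8% and 11.9%).

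KAT7, on chromosome 17, had the fewest promoter bases of the genes marked in both lines in either NC library, and differed little after knockdown. It had 935, 929, 1065 and 947 bases, with log2 ratios of -0.01 and -0.17. The MV4-11 ratio lay above the median of the genes marked in both MV4-11 libraries and became 0.11 after division by covered length. The peak also spans an annotated start of FAM117A, so that the mark at KAT7 cannot be assigned to one of the 2 genes.

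KAT5, on chromosome 11, took opposite directions in the 2 lines. It had 2225 and 2545 promoter bases in Kasumi-1 and 1312 and 502 in MV4-11. The Kasumi-1 log2 ratio was 0.19, and the 320 added bases lay at the outer edges of the peak, mostly upstream. The MV4-11 log2 ratio was -1.39, at the 6.79 percentile of the genes marked in both MV4-11 libraries. The MV4-11 sh-ANP32B peak reached about 250 bases to each side of the start, and the start stayed under a peak in all 4 libraries.

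KAT8, on chromosome 16, also differed in direction, as did 42.2% of all genes marked in the 4 libraries in the same sense. It had 2036 and 2748 promoter bases in Kasumi-1 and 2078 and 1467 in MV4-11, with log2 ratios of 0.43 and -0.50. Part of the Kasumi-1 difference was a separate peak of 459 bases, from -2390 to -1932 relative to the start, that no other library had. In MV4-11 sh-ANP32B the single NC peak was split in 2 by a gap from -388 to -31 relative to the start. When lists were joined over 1 common gap, the MV4-11 ratio of KAT8 was -0.19, and around another annotated start of KAT8, 9608 bases downstream, it was 0.10.

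KAT2A, on chromosome 17, had 1158 and 1422 promoter bases in Kasumi-1, a log2 ratio of 0.30, and none in MV4-11. The start of HSPB9 lies 1437 bases upstream of the KAT2A start, and its promoter window held the same bases. KAT2B, on chromosome 3, had 1919 and 1788 promoter bases in Kasumi-1, a log2 ratio of -0.10, and none in MV4-11. In MV4-11 neither gene had a promoter peak even within 5000 bases. Whether either promoter carried H3K27ac below the threshold of the peak caller in MV4-11 cannot be read from peak lists.

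**Figure D2:**
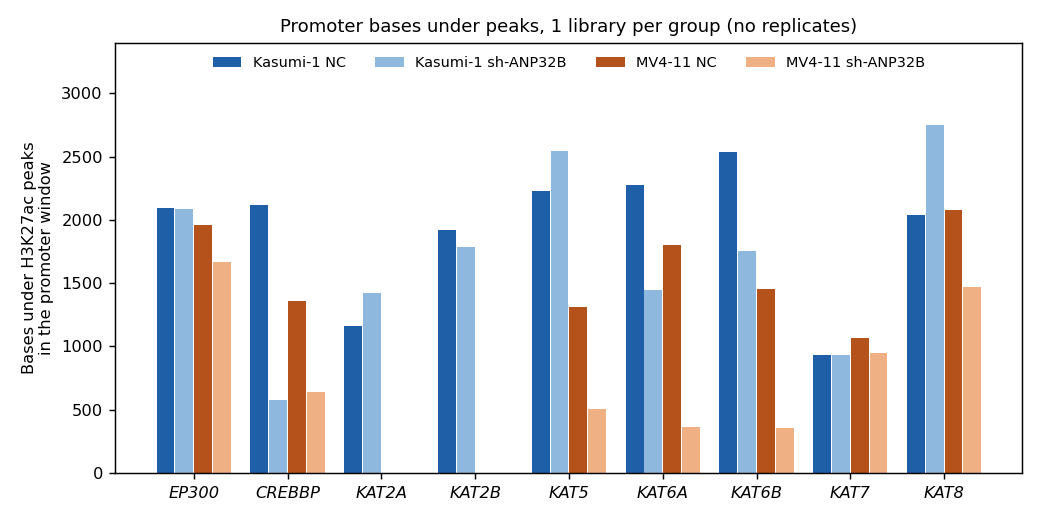
Bases under H3K27ac peaks in the promoter window of each acetyltransferase gene (vertical axis, bases), with 1 bar per library and no error bars because there was 1 library per group. CREBBP, KAT6A and KAT6B have shorter bars for sh-ANP32B than for NC in both lines, and KAT2A and KAT2B have no bar in MV4-11.

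Counted over the genes, 6 of 9 had fewer promoter bases after knockdown in Kasumi-1 (49.9% of the 9705 genes with a promoter peak in either library) and 3 had more (48.9%). At least 1.5-fold fewer bases were found for CREBBP and KAT6A, 2 of 9, where 14.6% of all genes passed the same limit. In MV4-11 all 7 genes with a promoter peak had fewer bases, where 78.1% of 7469 genes did, and the count was 5 of 7 after division by covered length because EP300 and KAT7 then had more. At least 1.5-fold fewer bases were found for CREBBP, KAT5, KAT6A and KAT6B, 4 of 7, beside 45% of all genes, so that this share was near that of the genome. None of the genes had 1.5-fold more promoter bases in either line (4.86% and 7.28% of all genes). CREBBP and KAT6A passed the 1.5-fold limit in both lines, as did 3.51% of the 9986 genes with a promoter peak in any of the 4 libraries. They did so in each of the windows, peak filters, starts and scalings tried. Fewer bases in both lines, by any margin, were found for these 2 and for EP300, KAT6B and KAT7 (26.1% of all genes), although EP300 and KAT7 had more in MV4-11 after division by covered length.

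The median log2 ratio over the acetyltransferase genes was -0.01 in Kasumi-1, beside 0.0041 over the 8889 genes marked in both Kasumi-1 libraries. In MV4-11 it was -1.10, beside -0.27 over the 5412 genes marked in both MV4-11 libraries. Genes whose promoter peak was lost have no ratio and are left out of these medians. In MV4-11 that was 24.4% of the 7154 genes with an NC promoter peak, and none of the acetyltransferase genes. The gap between -1.10 and -0.27 is thus wider than with lost genes counted. With peaks of at least 500 bases the MV4-11 median was -0.50, beside -0.22 over the genes still marked in both libraries. With 1 common minimum width and joining gap it was -0.66, beside -0.24 over such genes. KAT6A and KAT6B were left out of the first of these and KAT6B of the second, having no peak left after knockdown. Summed over the 9 genes, promoter bases went from 17292 in NC to 15300 in sh-ANP32B in Kasumi-1 (0.885 of NC) and from 11034 to 5939 in MV4-11 (0.538 of NC). Covered length over the genome was 1.03 and 0.825 of NC in the same lines. The canonical start was under a peak in NC and not in sh-ANP32B for CREBBP and KAT6B in Kasumi-1, where the same held for 17.1% of all genes with a start under an NC peak. In MV4-11 it held for KAT6A, beside 36.7% of all genes.

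**Figure D3:**
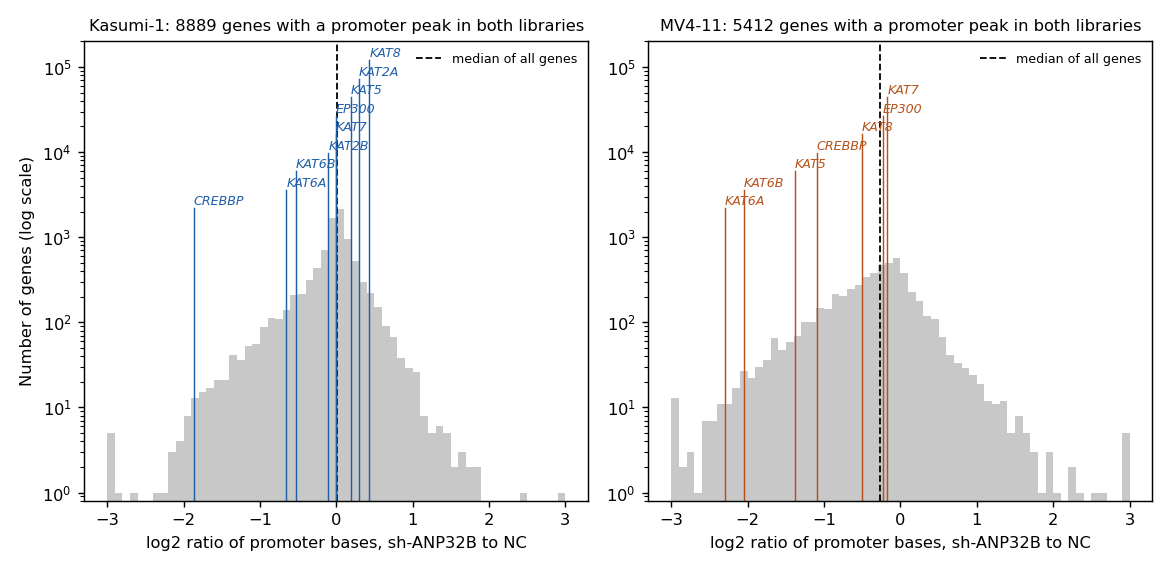
Distribution of the log2 ratio of promoter bases, sh-ANP32B to NC, over all protein-coding genes marked in both libraries of a line (grey bars, number of genes on a log scale, ratios past 3 in size placed in the end bars), with the median as a dashed line. Vertical lines mark the acetyltransferase genes, their heights only separating the names, and CREBBP lies in the lower tail in Kasumi-1 while KAT6A and KAT6B lie in it in MV4-11.

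The base composition of what was lost differed between the genes. For CREBBP the lost bases were GC-rich in both lines, with 75.8% GC against 73.8% of the kept bases in Kasumi-1 and 80.0% against 75.2% in MV4-11. For KAT6A the lost bases had 76.5% GC against 63.9% in Kasumi-1 and 75.4% against 64.7% in MV4-11. KAT6B differed between the lines, with 64.6% GC in lost and 69.7% in kept bases in Kasumi-1, and 73.0% and 69.6% in MV4-11. For EP300, KAT5 and KAT8 in MV4-11 the lost bases were the outer parts of a peak or a gap within it, and had less GC than the kept ones: 60.1% against 70.5%, 55.9% against 68.1%, and 51.9% against 62.1%. The same held for the edges lost by KAT2B in Kasumi-1 (45.8% against 69.2%), while the edge lost by KAT7 in MV4-11 had more GC than the kept bases (60.2% against 54.2%). Over all genes with at least 100 kept and 100 lost bases, lost bases had more GC in 54.2% of 3211 genes in Kasumi-1 and in 30.5% of 3855 genes in MV4-11. The part of GC content in these differences was not tested.

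**Figure D4:**
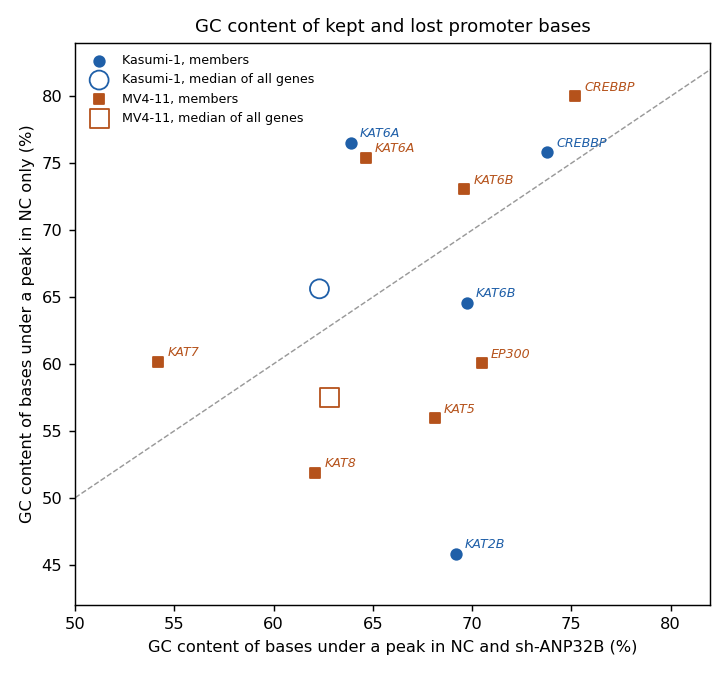
GC content of promoter bases under an NC peak only (vertical axis, percent) against that of bases under a peak in both libraries of the line (horizontal axis, percent), for the acetyltransferase genes with at least 100 bases of each kind. Filled symbols are genes, large open symbols are medians over all genes, circles are Kasumi-1 and squares MV4-11, and KAT6A and CREBBP lie above the dashed line of equal GC in both lines.

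Between the NC libraries, 7 of the 9 genes had more promoter bases in Kasumi-1 than in MV4-11, where 83.9% of 9815 genes did. At least 1.5-fold more were found for CREBBP, KAT2A, KAT2B, KAT5 and KAT6B (61.9% of all genes). EP300 (2095 and 1963 bases), KAT7 (935 and 1065) and KAT8 (2036 and 2078) differed least, and KAT7 and KAT8 had more in MV4-11. The median log2 ratio of Kasumi-1 to MV4-11 was 0.34 over the 7 genes with a peak in both libraries and 0.58 over 6876 genes.

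The gene regions added peaks inside the genes and at their neighbours. Over the 9 regions there were 19, 21, 24 and 22 peaks, covering 33697, 32455, 25520 and 18448 bases. Fewer region bases after knockdown were found for 6 of 9 genes in Kasumi-1 (46% of all genes) and for 9 of 9 in MV4-11 (75.3%). At least 1.5-fold fewer were found for 1 gene in Kasumi-1, KAT6A (9.93% of all genes), and for 4 in MV4-11, CREBBP, KAT5, KAT6A and KAT6B (40.5%). Peaks inside a gene body and away from the promoter window of any canonical protein-coding start numbered 2, 2, 8 and 7, and most were in MV4-11. Some of them spanned another annotated start of the same gene, among them the broad KAT8 peak described below, in all 4 libraries.

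KAT2B had its only MV4-11 peaks in intron 1. The peak was 1044 bases wide in the NC library (chr3:20060476-20061519) and 841 bases wide in the sh-ANP32B library (chr3:20060659-20061499), about 20 kb past a promoter with no peak. Kasumi-1 NC had a peak of 493 bases that overlapped its edge, and Kasumi-1 sh-ANP32B had none there. The middle of the bases shared by the MV4-11 peaks is shown because it is the one stretch of KAT2B marked in that line, on the plus strand of hg38, with TTCCTC, the reverse complement of the ETS and PU.1 core GAGGAA, in capitals.
KAT2B intron 1 (chr3:20060979-20061178, plus strand): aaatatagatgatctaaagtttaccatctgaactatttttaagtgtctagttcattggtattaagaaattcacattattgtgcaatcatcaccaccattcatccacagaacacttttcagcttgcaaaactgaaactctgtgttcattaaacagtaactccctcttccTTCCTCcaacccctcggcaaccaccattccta
These 200 bases had 37.0% GC, against 80.8% in the upstream bases of KAT2B printed above. GAGGAA was found on either strand in 22.8% of the central 200-base windows of 24523 MV4-11 NC peaks. TGTGGT, the core of the RUNX motif, was not found here and was found in 15.0% of those windows.

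KAT6B, the longest of the genes with 208 kb, had further peaks in its body in MV4-11, 3 before and 2 after knockdown, and none in Kasumi-1. One lay over exon 3 and an annotated start there, with 476 and 475 bases in the MV4-11 libraries. One lay in intron 3, with 785 and 962 bases, and one in intron 4, with 752 bases, was present in NC alone. KAT6A had a peak in intron 2 of 323 and 476 bases in the MV4-11 libraries and none in Kasumi-1. CREBBP had peaks of 298 and 602 bases in intron 1 in MV4-11 NC, and the sh-ANP32B library one of 295 bases, at positions that did not overlap. The narrower NC peak (chr16:3854665-3854962) and the sh-ANP32B peak (chr16:3855057-3855351) lay close together. Both were near the narrowest width in their lists, 289 and 275 bases. In Kasumi-1 sh-ANP32B alone, CREBBP had a peak of 836 bases in intron 5, which spanned an annotated start of CREBBP.

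KAT8 had the most bases in its region, 10850, 12111, 9860 and 8652, and most of them lay outside the promoter window. A broad peak over exons 5 to 10 of KAT8 was 5249, 5041, 4093 and 3944 bases wide and ranked at the 97.6 to 98.2 percentile of peak width in its library. Several regions also held promoters of neighbouring genes, which were counted. RNASEH2C, downstream of KAT5, had 2317, 2254, 0 and 294 promoter bases, DHX58 beside KAT2A had 1629, 1527, 394 and 545, TRAP1 beside CREBBP had 1443, 1544, 905 and 894, and BCKDK and PRSS8 lay beside KAT8. The TRAP1 start lies 163189 bases from that of CREBBP, past the far end of the gene.

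**Figure D5:**
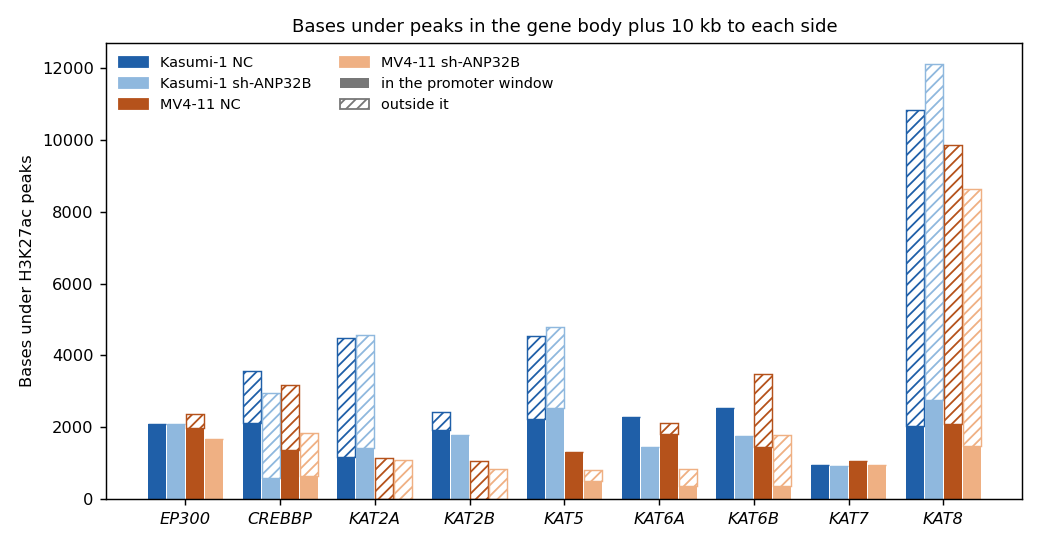
Bases under H3K27ac peaks in the gene body plus 10 kb to each side for each acetyltransferase gene (vertical axis, bases), with 1 bar per library. Solid parts lie in the promoter window and hatched parts outside it, and KAT8 has the tallest bars, mostly hatched, while the MV4-11 bars of KAT2A and KAT2B are wholly hatched.

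Most region peaks had a partner in the line's other list, with 18 of 19, 19 of 21, 17 of 24 and 18 of 22 in the 4 libraries, where 91%, 86.8%, 70.9% and 82.3% of all peaks had one. Peaks without a partner were 493 bases wide in the first of these, and 459 to 836, 298 to 959 and 294 to 545 bases in the others. The widest of these, 959 bases, was the upstream KAT6B peak described above.

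The subunits of the acetyltransferase complexes were described in the same way, and their counts stand beside shares over all genes of 78.1% with fewer and 45% with at least 1.5-fold fewer bases in MV4-11, and of 49.9% and 14.6% in Kasumi-1. Of the 9 partner subunits of KAT6A, KAT6B and KAT7, 7 had a promoter peak in MV4-11, all with fewer bases after knockdown and 6 at least 1.5-fold fewer. JADE1, a scaffold of KAT7 complexes, had 2747, 2702, 1799 and 444 bases, and BRD1, a scaffold shared by KAT6 and KAT7 complexes, had 2929, 1695, 1448 and 845. ING5, a reader of methylated H3K4 in these complexes, had 1798, 1069, 783 and 0. In Kasumi-1, 3 of the 9 had at least 1.5-fold fewer bases, BRD1 and ING5 among them.

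For the SAGA and ATAC subunits that work with KAT2A and KAT2B, 15 of the 16 with a promoter peak in MV4-11 had fewer bases and 10 at least 1.5-fold fewer, while in Kasumi-1 it was 14 and 2 of 21. SUPT3H, a SAGA core subunit, had 1213, 1243, 980 and 308 bases. KAT2A and KAT2B lacked a promoter peak in MV4-11, where 16 of the 22 subunits had one in NC and 12 in sh-ANP32B. TADA2A, TADA2B, SGF29, TAF5L, TAF6L and MBIP likewise had none in either MV4-11 library. For the TIP60 complex of KAT5, 8 of 10 subunits had fewer bases in MV4-11 and 5 at least 1.5-fold fewer, and in Kasumi-1 it was 9 and 2 of 14. MRGBP, a TIP60 subunit, had 3893, 3882, 1506 and 656 bases. At least 1.5-fold more bases in Kasumi-1 were found for 2 TIP60 subunits (4.86% of all genes). These were RUVBL1, with 467, 736, 0 and 0 bases, and DMAP1, with 0, 480, 0 and 0.

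Of the MSL and NSL subunits that work with KAT8, 8 of 9 had fewer bases in MV4-11 and 3 at least 1.5-fold fewer, and in Kasumi-1 it was 7 and 1 of 11. WDR5, a WD40 scaffold, had 2548, 1938, 833 and 403. Of the genes for partners of p300 and CBP, 5 of 7 had fewer bases in MV4-11 and 2 at least 1.5-fold fewer, and in Kasumi-1 it was 5 and 1 of 11. MAML1, the Notch coactivator that recruits p300, had 2150, 2157, 1590 and 315. In Kasumi-1, 1 of these partners had at least 1.5-fold more bases, MAML2, with 0, 482, 0 and 0. The share with at least 1.5-fold fewer bases in MV4-11 was 85.7% for the KAT6 and KAT7 partners, 62.5% for SAGA and ATAC, 50% for TIP60, 33.3% for MSL and NSL, and 28.6% for the p300 and CBP partners. In Kasumi-1 it was 33.3%, 9.52%, 14.3%, 9.09% and 9.09% in the same order.

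The genes most like KAT6A in their values over the 4 libraries, by Euclidean distance in log2(promoter bases + 100), were CABLES2 (2184, 1549, 1945 and 381 bases), KAT6B and ZG16B. Those most like KAT6B were GID8 (2393, 1914, 1393 and 380 bases), TSPAN14 and MYBPH. KAT6A and KAT6B were taken for this because their MV4-11 log2 ratios were the largest in size among the acetyltransferase genes. The distance uses the same promoter bases, so a likeness between these paralogs is no separate result. KAT6B was among the 3 genes nearest to KAT6A, but KAT6A was not among the 3 nearest to KAT6B. Their covered bases lay at different places relative to their starts.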

How the data were processed

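H3K27ac CUT&Tag peak lists of Kasumi-1 and MV4-11 cells, NC and sh-ANP32B, were used as deposited by the authors, with 1 library per group. Each list gives the position and width of peaks in bases, with no height, score or read count. Per the labels, the authors used Bowtie2 2.4.4, MACS3 3.0 and hg38. The methods of the study name other versions of Bowtie2 and a MACS2 release, removal of duplicates with Picard, merging of replicates and a q-value threshold, so the versions behind the lists are unsettled. Whether IgG served as control is not given in the sources used here. 2 IgG samples were not analysed here.

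Bases under peaks on chromosomes 1 to 22, X and Y were counted in promoter windows and gene regions of GENCODE release 44 (Python 3.11.15, numpy 2.4.6, pandas 2.3.3, matplotlib 3.10.9). The overlap code was tested on simulated peaks. Peaks shared at least 1 base. With 1 library per group, no test was made, the lines were not used as replicates of each other, and values are set beside all protein-coding genes. A narrower peak can come from fewer reads, since a caller extends peaks as far as its threshold allows.

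The genes and lists were chosen with earlier results of these data known. Named were all 9 genes, ANP32B, neighbours with a start in a region, in each list the genes lost or gained in both lines and up to 3 per line with the greatest change of at least 1.5-fold (examples are given), and the 3 genes nearest in pattern to KAT6A and KAT6B. Marker genes were fixed likewise. A result for 1 of them is not reported here. Alternatives changed the window, peak width, joining gap, start, scaling, fold, flank and overlap. The count of genes with no base under all 4 libraries, and its alternatives, were chosen after seeing the data.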

Additional observations from a re-analysis of the deposited data

Results flagged for a closer look

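KAT5 and KAT8 had more promoter bases after ANP32B knockdown in Kasumi-1 and fewer in MV4-11. For KAT5 the difference, sh-ANP32B minus NC, was 320 bases in Kasumi-1 and -810 bases in MV4-11. For KAT8 it was 712 bases in Kasumi-1 and -611 bases in MV4-11. This contrast between the lines rests on single libraries and was not tested. The same opposite directions were found for 42.2% of the 5181 genes with a promoter peak in all 4 libraries, so that they were common. The 320 bases at KAT5 lay at the outer edges of its Kasumi-1 peak, and the KAT8 log2 ratio in MV4-11 became 0.10 around the start 9608 bases downstream. Within 1000 bases of its start KAT5 had 2001 bases in both Kasumi-1 libraries, so that it then had no rise. The Kasumi-1 log2 ratio of KAT8, 0.43, was 0.11 within 1000 bases and 0.03 around the other start.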

How the results depend on the processing

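No paired analysis was possible because each group had 1 library and no replicate numbers were shared in the labels, and for the same reason no replicate could be left out. Of 105 alternative values, 93 kept the direction and stayed within 1.5 times the value reported (log2 medians within 0.1), 11 moved and 1 reversed. In MV4-11 the median log2 ratio of promoter bases over the genes, -1.10, was -0.98 in a window of 1000 bases, -0.50 with peaks of at least 500 bases, -0.66 with 1 common minimum width (357 bases) and joining gap (358 bases), and -0.82 after division by covered length. The first is the value of KAT6B, and the next 2 leave out genes with no peak left. In Kasumi-1, 1 gene, CREBBP, had at least 2-fold fewer promoter bases, against 2 at 1.5-fold. With peaks of at least 500 bases, 1 gene had a promoter peak in all 4 libraries and no base under all of them, against 3. With 50 kb flanks the regions held 38, 41, 38 and 35 peaks, and the ratio of region bases in Kasumi-1 was 1.01, against 0.963. Without peaks at other promoters, the Kasumi-1 NC regions held 12 peaks. The cause of the reversal was not tested. Depth is unknown, so a peak absent from a list may lie below its threshold, and the remnants of 365 bases at KAT6A and 352 bases at KAT6B in MV4-11 sh-ANP32B are near the narrowest width listed there, 275 bases.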

Other observations

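The genes that oppose or read histone acetylation were described alongside. Of 16 histone deacetylase genes, 13 were marked at the promoter in Kasumi-1, of which 10 had fewer bases after knockdown and 4 at least 1.5-fold fewer (30.8%, beside 14.6% of all genes). In MV4-11, 8 of 9 had fewer bases and 4 at least 1.5-fold fewer (44.4%, beside 45% of all genes). HDAC1, a class I deacetylase of the NuRD, Sin3 and CoREST complexes, had 2990, 1691, 1021 and 0 promoter bases (Kasumi-1 first, NC before sh-ANP32B). SIRT1, an NAD-dependent deacetylase, had 1049, 568, 513 and 0. HDAC10, which deacetylates polyamines, had 1544, 1251, 1546 and 321.

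Among the BET family of acetyl-lysine readers, 3 genes were marked in each line, of which 1 had fewer bases in Kasumi-1 (49.9% of all genes) and 3 in MV4-11 (78.1% of all genes). BRD3 had at least 1.5-fold fewer in both, as did 3.51% of all genes, with 3157, 2071, 1857 and 999 bases. Other genes with reported acetyltransferase activity numbered 9, all marked in Kasumi-1, of which 4 had fewer bases and 0 at least 1.5-fold fewer, and 7 had one in MV4-11, of which 7 had fewer bases and 2 at least 1.5-fold fewer. Among SET, ANP32A and ANP32B, listed together as inhibitors of histone acetylation, all 3 were marked in both lines, with fewer bases for 2 in Kasumi-1 and 3 in MV4-11 and at least 1.5-fold fewer for SET in MV4-11 alone. SET had 2693, 2654, 1423 and 838 bases and ANP32A 3306, 3345, 3870 and 2962. The shares of all genes given for the deacetylases and BET genes apply to these lists as well. These counts come from 1 library per group and were not tested.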
